A study of Drosophila melanogaster with 2 samples.

Results

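Core peaks at one-sided promoters are peaks called for the fly protein CG10348 that lie close to the start of 1 gene. They do not lie between the starts of 2 genes that point away from each other. A peak was taken from the authors' conservative list when its summit, the point of highest signal, lay at most 250 bp from the nearest annotated start (TSS) of a protein-coding gene. Summits between 2 such divergent starts, each within 1000 bp, were left out. A summit downstream of its TSS is not between the starts, so 11 core peaks were kept although another gene starts within 1000 bp upstream in the opposite direction. By this rule 253 of the 1799 conservative peaks on the main chromosome arms were core peaks, out of 1814 conservative peaks in all, and they lay nearest to 244 genes and 250 TSSs. Of the other main-arm peaks, 244 were at divergent promoters, 363 lay 251 to 1000 bp from a one-sided TSS, called the promoter flank here, and 939 lay farther away.

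The study was a chromatin immunoprecipitation sequencing (ChIP-seq) experiment on whole Drosophila melanogaster pupae aged 2 days. The flies carried a transgene for CG10348 fused to the green fluorescent protein eGFP, and antibody against GFP was used to pull down sonicated chromatin. There was 1 group, with 2 biological replicates and no other genotype, stage or treatment. Signal was therefore read through the GFP tag, in a mixture of all pupal cell types whose sex was not recorded. A site bound in few cells cannot be told apart from one weakly bound in many. Without flies lacking the tag, signal that does not depend on the tagged protein cannot be told apart either.

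CG10348 carries C2H2 zinc fingers, a fold that usually reads DNA bases directly. A core promoter is the stretch around a TSS on which RNA polymerase II and the general transcription factors assemble. In flies it can hold a TATA box, an initiator at the start itself and downstream elements, and many promoters have GAGA repeats just upstream.

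Sequences under strong summits are shown first because base composition at the summit was a property in which core peaks differed from weaker regions at the same kind of promoter. Each window is 100 bp centred on the summit and is written 5′ to 3′ along the strand of the nearest gene, from the RefSeq genome sequence of release 6, which has the arm lengths of dm6. Capitals mark matches, on either strand, to 5 hexamers, which are TTAAAA, the hexamer AAATAT, the TATA-box letters TATAAA, the palindrome TTTAAA and the homeodomain core TAATTA, and no window overlaps an annotated UTR. They are the 6 strongest upstream core summits whose windows met these conditions and could be shown, in order of signal: CG14100 (chr3L:19590570-19590669, minus strand, pooled signal 1064), CG31145 (chr3R:23669784-23669883, minus strand, 514), Jwa (chr2L:18705718-18705817, minus strand, 468), Hsp27 (chr3L:9383871-9383970, plus strand, 460), CG18549 (chr3R:12449115-12449214, plus strand, 456) and Trp1 (chr2L:10010186-10010285, plus strand, 379).
CG14100: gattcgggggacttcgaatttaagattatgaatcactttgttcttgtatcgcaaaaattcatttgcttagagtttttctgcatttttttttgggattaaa
CG31145: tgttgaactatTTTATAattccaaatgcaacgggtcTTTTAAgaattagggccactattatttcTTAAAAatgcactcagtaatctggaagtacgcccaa
Jwa: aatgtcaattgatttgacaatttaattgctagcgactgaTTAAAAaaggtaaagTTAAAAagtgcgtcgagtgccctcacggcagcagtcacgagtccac
Hsp27: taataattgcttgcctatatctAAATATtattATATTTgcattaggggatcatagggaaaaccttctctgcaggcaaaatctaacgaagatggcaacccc
CG18549: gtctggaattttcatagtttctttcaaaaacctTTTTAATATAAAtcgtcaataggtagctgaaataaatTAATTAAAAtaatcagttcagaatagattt
Trp1: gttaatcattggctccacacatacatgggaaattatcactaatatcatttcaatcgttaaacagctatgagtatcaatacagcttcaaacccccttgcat
The window of CG18549 held 23% G and C, with 21 of its 100 bases in capitals. Those of CG14100 and Trp1 held 31% and 36% G and C and no match, and that of Jwa held 41%, so neither a match nor a very low G and C content was present under every strong summit. For contrast, the strongest upstream region of the same kind that did not pass the authors' threshold and could be shown was at Vinc (chrX:2222365-2222464, minus strand, pooled signal 68.8, 36% G and C).
Vinc: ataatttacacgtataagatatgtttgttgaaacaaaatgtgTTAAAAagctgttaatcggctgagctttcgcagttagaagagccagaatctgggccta

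Core peaks lay upstream of the TSS far more often than weaker regions under the same position rule. Of the 253 summits, 214 were upstream, which is 84.6% (95% Wilson interval 79.6 to 88.5), and 39 were downstream. The comparison set was the 7530 regions of the authors' pooled ranked list that met the same rule on position but did not pass, of which 40.6% were upstream. The odds ratio was 8.02 (2-sided Fisher's exact test, exact p = 1.03e-45). At the 242 core peaks whose TSS had no opposite TSS within 1000 bp upstream the share was 88.4%, against 47% of 6506 such regions. Regions are not independent replicates, so this p and those like it below compare 2 classes of regions in 1 experiment, and the intervals cover the counting error of regions only. In the same list the upstream share was 64.7% among promoter-flank peaks. It was 87.3% at divergent promoters, a value largely set by the rule, since a summit between 2 divergent starts is upstream of both.

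Most summits lay more than 100 bp upstream of the TSS. The rule ends at 250 bp, so the outer edge, the median and the quartiles are partly set by it. The outermost 50 bp step, from 250 to 201 bp upstream, still held 47 core peaks. The median position was 148 bp upstream of the TSS, with quartiles at 191 and 89 bp upstream. In the stretch from 250 to 101 bp upstream lay 183 core peaks, or 72.3%, against 22.3% of the regions that did not pass. The fullest 50 bp step, from 200 to 151 bp upstream, held 77 core peaks, and the 100 bp just before the TSS held 31 together, 19 in its outer and 12 in its inner part. Each replicate's own summits gave nearly the same place. After leaving out 7 core peaks whose replicate regions also lie under a stronger peak, the median was 151 bp upstream in replicate 1 (n = 246) and 147 bp upstream in replicate 2 (n = 244). Replicate summits of the same peak lay a median of 26.5 bp apart, and 178 of 244 lay within 50 bp of each other. The upstream share was 85.8% by replicate 1's summits and 86.9% by replicate 2's.

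**Figure D1:**
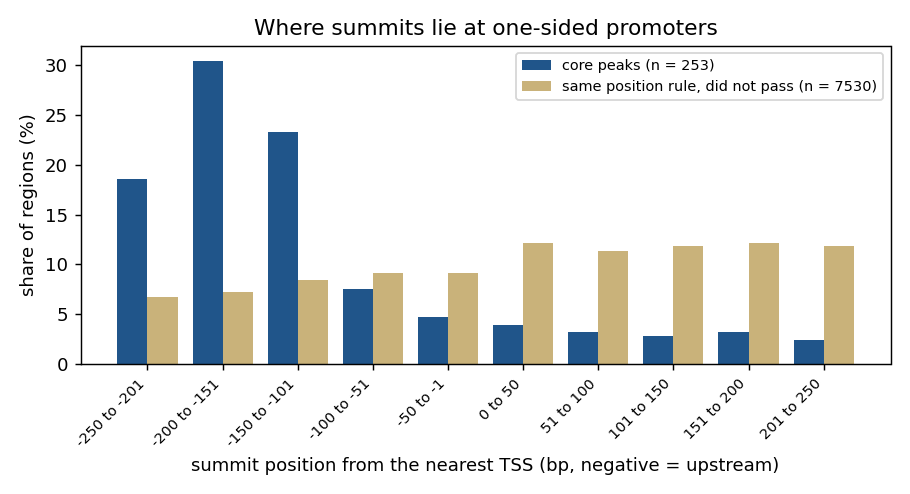
Share of summits (%) in 50 bp steps from the nearest TSS, in bp along the gene, for the 253 core peaks (blue) and the 7530 regions of the same position rule that did not pass (tan). Core peaks pile up from 250 to 101 bp upstream, with 30.4% in the step from 200 to 151 bp upstream, while the other regions range from 6.76% in the farthest upstream step to 12.2% from 151 to 200 bp downstream.

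The values next to the limit of the rule are given as a description. Just inside the 250 bp limit were Sox14, which encodes an HMG-box transcription factor, at 250 bp with a pooled signal of 412, Phyhd1 at 249 bp with 113, and dnc, a cyclic AMP phosphodiesterase gene, at 248 bp with 269. Just outside it were the potassium channel subunit gene Hk at 251 bp with 89.0, blow at 253 bp with 62.2, and the endosomal GTPase gene Rab5 at 254 bp with 106.

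The 39 downstream core peaks had a median position of 102 bp past the TSS. The strongest was at CG8320, where the summit lay in an intron 92 bp downstream and the pooled signal was 606, with 317 in replicate 1 and 288 in replicate 2. Next came tank at 145 bp (411), CG9147 at 11 bp (360) and the glutathione S-transferase gene GstE13 at 95 bp (331), all with the summit in the 5′ UTR. Trl, which encodes the GAGA factor that binds the repeats of the same name, had its summit 177 bp downstream with a signal of 173.

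By annotation, 106 of the 253 summits were intergenic, 96 were in an intron and 41 in a 5′ UTR, with 5 in other exons, 3 in a 3′ UTR and 2 in coding exons. Median signal was nearly the same in the 3 main classes, at 103 for intergenic, 105 for intronic and 96.8 for 5′ UTR summits. In 31 cases the summit lay inside another protein-coding gene. The next gene upstream was on the same strand for 143 core peaks and on the opposite strand for 110. The 112 plus-strand and 141 minus-strand members were otherwise treated alike.

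Pooled signal, the authors' value per peak from both replicates together, had a median of 103 at core peaks (quartiles 76.3 and 174, range 3.13 to 1064). The other conservative peaks had a median of 84.2, so that the ratio of medians was 1.22. The ratio was 1.24 by replicate 1's own values and 1.18 by replicate 2's. Divergent promoters had a median of 110, promoter-flank peaks 89.1 and peaks farther away 78.6. The regions of the same position rule that did not pass had a median of 16.7, a gap fixed by the threshold itself. Of the core peaks, 97 (38.3%) were above the upper quartile of all conservative peaks, which was 128. They made up 29 of the 100 strongest peaks while being 14.1% of the list. High signal was not particular to them. Peaks at divergent promoters had an upper quartile of 178, against 174 at core peaks. No test was run on signal, since it is what put peaks on the list.

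**Figure D2:**
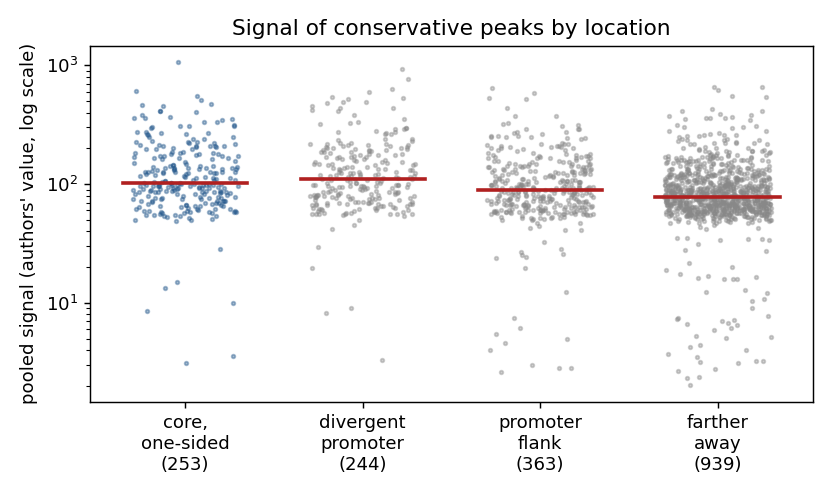
Pooled signal (the authors' value, log scale) of every conservative peak on the main arms, by location, with the number of peaks in brackets; each point is 1 peak, red bars are medians, and the horizontal spread is for display only. Core peaks have a median of 103 against 110 at divergent promoters, 89.1 at the promoter flank and 78.6 elsewhere, and the ranges overlap throughout.

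The 20 strongest core peaks ranged from 311 to 1064. CG14100 stood well apart, with 538 in replicate 1 and 526 in replicate 2, and it was the strongest of all conservative peaks. The third was eIF6, which encodes a factor that keeps the large ribosomal subunit from joining too early, with a pooled signal of 557, 269 in replicate 1 and 290 in replicate 2. Its summit lay 102 bp upstream, in an annotated exon and inside the neighbouring gene ytr.

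CG31145 had a pooled signal of 514 (291 in replicate 1, 218 in replicate 2) and Jwa 468 (269 and 205.2). Hsp27, a small heat shock protein gene, had 460 (230 and 229), and CG18549 456 (242 and 215). In these 4 replicate 1 was the higher, by a small margin at Hsp27.

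Sox14, named above at the limit, had 209 in replicate 1 and 210 in replicate 2. The transporter gene MFS10 had 406 (218 and 184), with its summit in a 5′ UTR and inside CG15717, and the translocation protein gene Trp1 had 379 (182 and 196). Atf3, a bZIP transcription factor gene, had 354, of which replicate 1 gave 214 and replicate 2 gave 144. The prolyl isomerase gene Fkbp14 had 333 (183 and 146), the TOR inhibitor gene Sesn 312 (165 and 183) and Hpf1, whose product steers ADP-ribosylation to histones, 311 (177 and 145). The remaining named loci of the 20, CG13921, CG1888, CG9147, CG1635, tank and GstE13, lay between 331 and 411. All 20 passed in both replicates' own lists.

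Signals of the replicates followed each other. Both ranked lists had a region at 251 of the 253 core peaks, and over these, as a description across peaks that share the same 2 libraries and control, the rank correlation (Spearman) was 0.795, and Pearson's r on the log2 scale was 0.855. Replicate 1 was higher at 194 of the 251. The median log2 ratio of replicate 1 to replicate 2 was 0.34 (SD 0.47, n = 251 peaks), against 0.26 at the other conservative peaks.

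Over the whole list, core peaks were recovered in single replicates more often than the other conservative peaks were. The conservative list rests on the same 2 replicates, so this recovery is not independent of it. For the 7 core peaks whose replicate regions also lie under a stronger peak, an overlap is not a separate measurement. At an IDR of 0.001 nearly all peaks of both kinds were recovered, so a difference could hardly appear there. Replicate 1 then held 145 of 151 core peaks and 619 of 646 others (odds ratio 1.05, 2-sided Fisher's exact test, exact p = 1). Replicate 2 held 139 of 151 and 599 of 646 (odds ratio 0.909, 2-sided Fisher's exact test, exact p = 0.732). In replicate 1's own thresholded list 189 core peaks, or 74.7%, were overlapped, against 61% of all 1799 conservative peaks and 58.8% of the non-members (odds ratio 2.07, 2-sided Fisher's exact test, exact p = 1e-06). In replicate 2's list 155 were overlapped, or 61.3%, against 53.6% of all conservative peaks and 52.3% of the non-members (odds ratio 1.44, exact p = 0.00967). The authors' optimal list held 234 core peaks, 92.5%, against 88.5% of all conservative peaks and 87.9% of the non-members (odds ratio 1.70, exact p = 0.0331). Core peaks also had the higher median signal, whose part in the recovery was not tested. Against divergent promoters alone none of the 3 passed, with odds ratios of 1.01 (exact p = 1), 0.876 (exact p = 0.516) and 0.75 (exact p = 0.474). With summits limited to 150 bp from the TSS the ratios were 1.43, 1.49 and 1.38 (exact p = 0.0928, 0.0529 and 0.448).

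Both replicates' lists held 142 core peaks, with a median pooled signal of 164. Replicate 1's list alone held 47, replicate 2's alone held 13, and 51 were in neither. The 51 had a median of 59.3 and reached at most 102, so they came from the weaker part of the list.

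**Figure D3:**
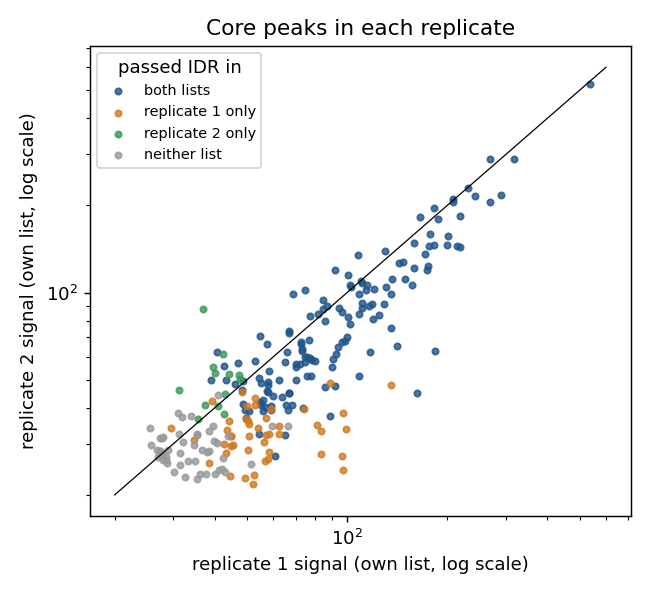
Signal of the 251 core peaks found in both replicates' ranked lists (each replicate's own value, log scales), coloured by which replicate's thresholded list held them; the line marks equal values. Most points lie below the line, as replicate 1 was higher at 194 peaks, and the peaks of neither list sit at the low end.

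Below a signal of 20 there were 6 core peaks, at CG15784 (15.1), Lkb1 (13.3), CG5910 (10.04), CG44812 (8.53), csw (3.56) and Caper (3.13). The lowest value among all the others was 28.5. Each of the 6 lay 199 to 216 bp from a stronger conservative peak that rested on the same replicate regions. At csw, a phosphatase gene of receptor tyrosine kinase signalling, the weak summit was 17 bp and the strong one 216 bp upstream of the TSS, with signals of 3.56 and 116. At the kinase gene Lkb1 they were 10 and 211 bp upstream, with 13.3 and 80.0. Such pairs hold 1 replicate measurement each, not 2.

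Most genes had 1 core peak, and 7 had more. Ptpmeg2, a protein tyrosine phosphatase gene on the minus strand of the X chromosome, had 4, at 4 of its 6 annotated TSSs. Along the gene their summits were at positions 9650935, 9650266, 9646103 and 9640821 (dm6). In the same order the pooled signals were 162 (77.2 in replicate 1, 83.1 in replicate 2), 69.2 (40.5 and 30.3), 197 (108 and 84.5) and 89.3 (40.8 and 40.7). Their summits lay 159, 41, 178 and 197 bp upstream of their TSSs. A promoter-flank peak of signal 2.85 beside the first of them rested on the same replicate regions, and the gene's first and last TSS had no conservative peak within 1000 bp. RapGAP1, which encodes a GTPase-activating protein for Rap1, had 2 at separate TSSs, with 137 at 165 bp and 76.3 at 191 bp upstream. So did brwl, with 241 at 154 bp and 99.1 at 78 bp upstream, and CG2258, with 120 at 194 bp and 62.0 at 175 bp upstream.

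**Figure D4:**
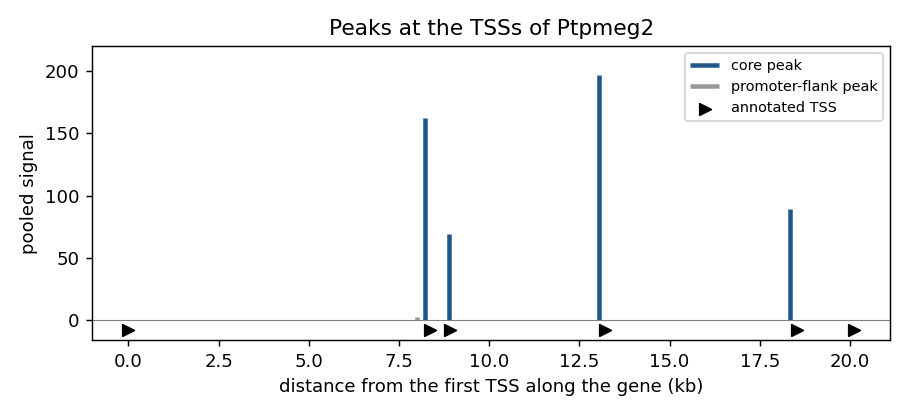
Conservative peaks nearest to Ptpmeg2 by distance from the gene's first TSS along the gene (kb), with bar height as pooled signal and triangles at the 6 annotated TSSs. The 4 core peaks (blue, signals 162, 69.2, 197 and 89.3) each lie just before 1 of the 4 inner TSSs, and the first and last TSS have none.

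Genes with alternative starts were common among those with a core peak. Of the 244 genes, 148 (60.7%) had more than 1 annotated TSS, against 26.5% of all 13945 protein-coding genes. A gene with more TSSs offers more places for a summit to lie near, so part of this follows from the rule. The core peak was at the gene's first TSS in 150 of 253 cases.

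Summits lay on DNA poor in G and C. The 100 bp windows of core peaks held 33.8% G and C on average (SD 10.4, n = 253 regions), against 47.1% at the regions that did not pass (SD 9.60, n = 7530). Upstream core peaks held 32.6% and downstream ones 40.3%. Among the 253, 198 (78.3%, 95% Wilson interval 72.8 to 82.9) had less G and C at the summit than the mean of the windows 300 bp to each side. Of the regions that did not pass, 32.8% did so (odds ratio 7.37, 2-sided Fisher's exact test, exact p = 5.39e-48). With upstream summits alone on both sides of the comparison the odds ratio was 7.30 (exact p = 1.11e-36). One-sided promoters of genes with no conservative summit within 1000 bp of any of their TSSs are called unbound here. A conservative peak farther away was allowed. Read 148 bp upstream of the TSS, these promoters held 38.9% on average. Of these 11896 promoters, 7019 also had less G and C there than the mean of the windows to each side. Against them the odds ratio of core peaks for such a dip was 2.501 (2-sided Fisher's exact test, exact p = 2.06e-10). The low content was shared with the rest of the list, at 31.1% for divergent promoters, 35.7% for the promoter flank and 36.3% farther away.

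By signal, the mean was 30.6% in the stronger 127 core peaks and 37.0% in the weaker 126. It was 33.4% in the 20 strongest, which ranged from 23% to 42%, close to the mean of all core peaks. Whether G and C content falls steadily with signal was not tested. Along the promoters with an upstream core peak, the mean fell to 31.5% near 210 bp upstream and rose to 50.3% near 30 bp upstream of the TSS. At promoters of unbound genes it was 38.2% and 42.4% at the same places.

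**Figure D5:**
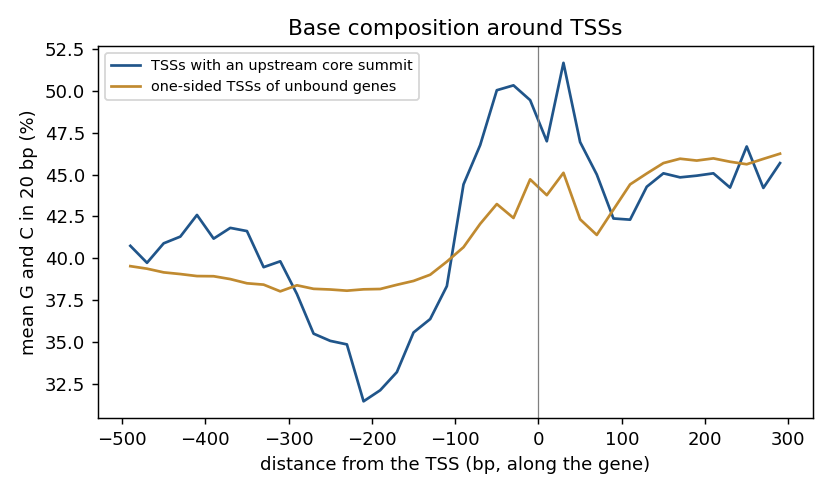
Mean G and C content (%) in 20 bp steps from 500 bp upstream to 300 bp downstream of the TSS, for TSSs with an upstream core summit (blue) and the 11896 one-sided TSSs of genes without a conservative summit within 1000 bp (tan). The blue line dips to 31.5% near 210 bp upstream and stands above the tan line across the last 100 bp before the TSS.

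Among 21 short sequences compared at the summits, 6 were more frequent at core peaks than at the regions that did not pass, 3 were less frequent, and 12 missed the threshold of 0.05 (2-sided Fisher's exact tests, Benjamini-Hochberg adjusted over the 21). Both strands were searched in the 100 bp window, and overlapping matches were allowed. TTAAAA was at 92 summits, or 36.4%, against 10.8% (adjusted exact p = 3.29e-24), and AAATAT at 90, or 35.6%, against 11.6% (adjusted exact p = 2.73e-21). TATAAA, the letters of the TATA box, was at 26.1% against 8.9% (adjusted exact p = 3.52e-14). TTTAAA, which shares 5 letters with TTAAAA and stood beside it at 40 summits, was at 21% against 6.07% (adjusted exact p = 6.18e-14). TAATTA, the core that many homeodomain proteins bind, was at 10.3% against 3.53% (adjusted exact p = 1.09e-05), and AAAAAA at 23.3% against 14% (adjusted exact p = 0.000388). AAAAAA missed the threshold with summits limited to 150 bp from the TSS (22.6% against 14.7%, adjusted exact p = 0.082).

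These 6 are made of A and T alone, and the summits also held less G and C, whose part in the difference was not tested. At promoters of unbound genes, read 148 bp upstream, TTAAAA was at 23.4%, AAATAT at 22.7%, TATAAA at 15.9%, TTTAAA at 15.1%, TAATTA at 7.9% and AAAAAA at 21.9%. Against those promoters 4 of the 21 passed, of which the hexamers TTAAAA, then AAATAT, then TATAAA were higher and the repeat GAGAG was lower. The sequences were also centred on the summit. TTAAAA was in 15.2% of the windows 200 bp to either side of it, AAATAT in 14.4% and TATAAA in 9.49%. At least 1 of the 5 marked sequences was present at 173 summits, or 68.4%, against 28.6% of the regions that did not pass and 49.5% of the unbound promoters. In the stronger 127 core peaks TTAAAA was at 59 summits, and in the weaker 126 at 33.

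Less frequent at the summits were GAGAG, in 7.91% against 15% (adjusted exact p = 0.00335), CAGCTG, an E-box, in 1.98% against 6.32% (adjusted exact p = 0.00554), and CACACA in 4.74% against 9.96% (adjusted exact p = 0.0113). The CAGCTG difference missed the threshold without replicate 1 (3.11% against 6.35%, adjusted exact p = 0.173), in the optimal list (adjusted exact p = 0.0572), at an IDR of 0.001 (0.109) and with windows of 50 bp (0.261) or 200 bp (0.123). That of CACACA missed it without replicate 2 (5.29% against 9.3%, adjusted exact p = 0.0725), at an IDR of 0.001 (0.0562) and with windows of 200 bp (0.0941), and that of GAGAG with windows of 200 bp (0.586). The DREF site TATCGATA was at 1 summit, and AGATAA, which factors of the GATA family bind, at 19 (7.51% against 4.65%, adjusted exact p = 0.0922). A match is a description of letters and not a measured site.

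At the TSSs themselves, 3 of 10 core promoter elements differed between the 250 TSSs with a core peak and the 11896 one-sided TSSs of unbound genes. The initiator letters TCAGT, within 10 bp of the TSS, were at 24.4% against 15.5% (odds ratio 1.76, 2-sided Fisher's exact test, Benjamini-Hochberg adjusted over the 10, exact p = 0.00188). GAGAG in the last 100 bp was at 15.6% against 8.58% (odds ratio 1.97, adjusted exact p = 0.00188), while the same repeat was scarcer under the summits. The elements at the TSS were searched on the strand of the gene only. Summit windows were searched on both strands and had another comparison set, so the 2 searches are not alike. TATAAA from 45 to 15 bp upstream, the usual place of a TATA box, was at 3.6% against 9.44% (odds ratio 0.358, adjusted exact p = 0.00286), where under the summits it was more frequent than in the comparison regions. The TATAAA difference was no longer past the threshold without replicate 1 (4.35% against 9.24%, adjusted exact p = 0.0927) or at an IDR of 0.001 (4% against 9.21%, adjusted exact p = 0.0749).

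The TSSs compared differed in kind, since 61.6% of those with a core peak and 45.3% of the unbound ones belonged to genes with more than 1 TSS. Within such genes TCAGT was at 25.3% against 16.7% (adjusted exact p = 0.0282) and GAGAG at 18.2% against 9.97% (adjusted exact p = 0.0258). The downstream element letters GGTTC were then at 5.84% against 2.14% (adjusted exact p = 0.0282), while TATAAA was at 4.55% against 5.5% (adjusted exact p = 0.902). Limited to TSSs with no opposite TSS within 1000 bp upstream, TATCGATA from 100 bp upstream to 20 bp downstream of the TSS also passed, at 0.837% against 3.72% (adjusted exact p = 0.0335). With summits limited to 150 bp from the TSS, none of the 10 passed by Fisher's exact test after adjustment, and 1, TATAAA, had an unadjusted p under 0.05, at 3.48% against 9.44% (exact p = 0.0239). TCAGT was then at 15.7% against 15.5% (odds ratio 1.01), and GAGAG turned, at 5.22% against 8.58% (odds ratio 0.586, adjusted exact p = 1 for both).

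No arm passed the threshold in its share of core peaks. The X chromosome held 54, or 21.3%, against 17.4% (odds ratio 1.29, 2-sided Fisher's exact test, Benjamini-Hochberg adjusted over 6 arms, exact p = 0.332). It passed without replicate 2 (odds ratio 1.61, adjusted exact p = 0.0417) and against the strongest regions that missed the authors' threshold (odds ratio 2.27, adjusted exact p = 0.0149). The arm 2R held 38, or 15%, against 21.4% (odds ratio 0.649, adjusted exact p = 0.0905).

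Of the 22 gene lists, 9 held at least 1 gene with a core peak, and none held more than 3. The share of all 13945 protein-coding genes nearest to a core peak was 1.75%, and the lists are read against it by counts alone, with no test. Of 32 Notch pathway genes 3 had one (9.38%). The co-repressor gene gro had a signal of 201 (111 in replicate 1, 91.7 in replicate 2) and numb, an inhibitor of Notch in 1 of the daughters of a dividing cell, 179 (101 and 82.5). The ubiquitin ligase gene neur had 57.3 (37.5 and 23.7).

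Of 30 genes of the EGF receptor and MAP kinase pathway 3 had one (10%): the ligand gene spi with 165 (98.3 and 68.1), csw with 116 (66.8 and 44.9) and aop, an ETS repressor gene, with 54.1 (27.9 and 26.5). Of 35 TOR and insulin genes 3 had one (8.57%). These were Sesn, named above, REPTOR, a transcription factor gene downstream of TOR, with 228 (115 and 106), and Pi3K21B, the regulatory subunit of phosphoinositide 3-kinase, with 134 (86.1 and 47.1).

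Of 32 ecdysone response genes 3 had one (9.38%), all with summits upstream. E23, an ABC transporter gene, had 209 (117 and 89.5) and the nuclear receptor genes Eip75B and Hr3 had 74.7 (52.2 and 21.8) and 58.0 (27.4 and 31.6). Of 30 heat shock and co-chaperone genes 2 had one (6.67%). Beside Hsp27 this was Hsp26, with 69.5 (31.0 and 38.5), whose summit lay 140 bp upstream, against 142 bp at Hsp27.

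Among 48 chromatin and insulator genes 2 had one (4.17%), Trl and lolal (82.8, with 56.6 and 26.2). The Smad gene Mad was the 1 of 26 BMP pathway genes (58.1, with 29.5 and 34.0), deltaCOP, a coatomer subunit gene, the 1 of 91 vesicle transport genes (90.3, with 39.0 and 49.7), and eIF6 the 1 of 51 translation factor genes.

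The other 13 lists had no core peak. They were the 93 cytosolic and 75 mitochondrial ribosomal protein genes, 48 proteasome, 87 oxidative phosphorylation, 31 aminoacyl-tRNA synthetase, 65 general transcription, 23 nucleoporin, 20 replication and 31 spliceosome genes, 24 Hippo pathway genes, and the 125 cuticle, 180 chemosensory receptor and 85 cytochrome P450 genes. At the background share a list of this size would hold very few, so an absence in 1 list carries little. Of the cytosolic ribosomal protein genes, 5 had a peak at a divergent promoter, which the rule leaves out. There were 3 such genes in the mitochondrial ribosomal list and 2 each in the aminoacyl-tRNA synthetase and general transcription lists. The nucleoporin, replication, spliceosome and Hippo lists had 1 each, and the remaining lists had none.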

How the data were processed

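Peaks of CG10348-eGFP were analysed in 2 biological replicates of whole pupae as the authors deposited them. Per the file headers the coordinates are on dm6 and the regions are narrowPeak lists filtered by IDR, the irreproducible discovery rate between replicates. The deposited signal is the authors' enrichment value per peak in an undefined unit, the deposited score follows the IDR and is capped at 1000, and the deposited −log10 IDR stands in the q-value column. Aligner and peak caller are not given in the sources used here, and 1 control library served both replicates. Pooled lists rest on both replicates. The files used hold no read counts, so the depth is unknown and no interval or floor on it is given.

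TSSs came from Ensembl release 115, and sequence from RefSeq release 6, whose arm lengths equal those of dm6. Overlap meant 1 bp or more. Comparisons were made with 2-sided Fisher's exact tests (Python 3.11.15, scipy 1.17.1) with Benjamini-Hochberg adjustment within each family, and code was tested on simulated data. Replicate values are those of the touching region in that replicate's own ranked list.

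The members and lists were chosen with earlier results of these data known. Genes named were those nearest to the 20 strongest core peaks, up to 4 of the strongest in each of 22 gene lists, and 3 on each side of the 250 bp limit. Other genes (multiple peaks, signal under 20, the strongest downstream) were chosen after their values were seen. Names in lists that matched no annotated gene numbered 24. Alternatives were 12 planned and 6 added after seeing the data.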

Additional observations from a re-analysis of the deposited data

How the results depend on the processing

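Under the 18 alternatives tried, the upstream share and the low G and C share of core summits kept their direction and stayed past the threshold in each that could be run, with odds ratios from 4.10 to 11.4 and from 2.501 to 12. The share on the X chromosome, with an odds ratio of 1.29 (adjusted exact p = 0.332), passed when replicate 2 was left out (1.61, adjusted exact p = 0.0417, against 1.40 without replicate 1) and with the comparison limited to the strongest non-passing regions (2.27, adjusted exact p = 0.0149). Recovery in replicate 1, in replicate 2 and in the optimal list was no longer past the threshold within 150 bp (odds ratios 1.43, 1.49 and 1.38) and against divergent promoters (1.01, 0.876 and 0.750, the last 2 reversed). At an IDR of 0.001 the odds ratios were 1.05 in replicate 1 and 0.909 in replicate 2, the second reversed. Nearly all peaks of both kinds were recovered there, and the optimal list held all 151 core peaks and gave no ratio. The 9 short sequences past the threshold became 5 within 150 bp, 5 with the strongest non-passing regions and 4 against unbound promoters. The 3 core promoter elements became 0 within 150 bp, with 1 at an unadjusted p under 0.05, and 2 without replicate 1 and at the stricter IDR, where TATAAA was lost. The odds ratio of TCAGT went from 1.76 to 1.01 within 150 bp, and that of GAGAG from 1.97 to 0.586. Within 150 bp 115 core peaks are compared and at the stricter IDR 151. The causes of these changes were not tested. The ratio of median signal, 1.22, was 1.20 without replicate 2 and 1.22 without replicate 1, 1.14 at the stricter IDR, 1.16 within 150 bp and 1.28 with divergent partners sought within 2 kb. No paired analysis was possible because there is 1 group.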
